A study of Drosophila melanogaster with 46 samples.

Results

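The pigment genes of cuticle and eye described here were the 10 Drosophila melanogaster genes y (yellow), e (ebony), b (black), t (tan), ple (pale), Ddc (Dopa decarboxylase), w (white), v (vermilion), st (scarlet) and bw (brown). They were taken by symbol, and all 10 stood among the 12785 genes of the authors' deposited fold change table for Pc and among the 11771 genes of the authors' deposited table for ph. The set was chosen with results of these tables and peak lists in view, so the genes' own fold changes and peaks are a description and were given no test of their own.

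Fly cuticle gets its colour from dopamine. The product of ple turns tyrosine into dopa, Ddc turns dopa into dopamine, and from there dopamine is either oxidised to dark melanin, with the secreted protein of y taking part, or coupled to beta-alanine and built into pale, hardened cuticle. The beta-alanine comes from b, the coupling enzyme is e, and t reverses the coupling. The red-brown colour of the eye comes from ommochromes, whose synthesis from tryptophan starts with the oxygenase encoded by v, and from pteridines. The proteins of w, st and bw are subunits of ABC transporters that load pigment precursors into granules: w pairs with st for ommochromes and with bw for pteridines. In the larval eye disc, the epithelium that later forms the adult eye, these pigments have not yet been deposited.

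The series examined Polycomb repressive complex 1 (PRC1), which keeps developmental genes silent and contains the proteins Pc, Ph and PSC, in 46 samples. RNA was sequenced from eye discs of wandering third-instar larvae, about 150 discs per replicate, in 3 groups: 2 replicates of the Pc mutant labelled PcXT109 with FRT2A, 4 replicates of RNA interference (RNAi) against ph, and 4 replicates of RNAi against white. Binding of PSC and of Su(z)12, a subunit of the H3K27 methyltransferase complex PRC2, was mapped by ChIP-seq in 2 replicates each, about 500 discs per replicate, in the strain W1118 Oregon-R. The ph RNAi discs came from a cross of the stocks BL 64095 and VDRC 50028, and the white RNAi discs from a cross of BL 64095 and BL 33623. The alleles in these stocks, the driver of the RNAi, whether the Pc mutant discs were wholly mutant, and the control behind the Pc table are not stated by the labels. Nor do they say whether replicates came from separate sets of animals, so p-values measure only the spread between these samples, which may be technical. Both tables hold a fold change, its standard error and an adjusted p per gene and no value per sample, so the levels of single replicates, their spread and the sequencing depth are unknown.

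The targeted genes went the way their labels say. Pc was lower in Pc mutant discs than in their control (log2 fold change -1.64 ± 0.41 SE, adjusted p 0.00134), a ratio of 0.321, in the authors' deposited table for Pc. Both copies of polyhomeotic were lower in ph RNAi discs than in white RNAi discs, ph-p by a ratio of 0.574 (adjusted p 1.11e-88) and ph-d by a ratio of 0.633 (adjusted p 6.89e-42), in the authors' deposited table for ph. The tissue label was set against 10 genes of eye fate and photoreceptor differentiation (ey, toy, eya, so, dac, gl, ato, elav, sens, ro). All 10 had mean normalized counts of 258 to 6746 in the Pc comparison and 334 to 8306 in the ph comparison. All 10 were also lower in both, with a median log2 fold change of -1.04 in Pc mutant discs and -4.09 in ph RNAi discs. Of all genes, 6.24% were lower in Pc mutant discs and 34.9% in ph RNAi discs. In whole discs, fewer cells of a type and less RNA per cell cannot be told apart.

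Yellow was called in both tables, on opposite sides of 0. In the authors' deposited table for Pc, y was higher in Pc mutant discs by 7.18 ± 0.33 on the log2 scale (95% interval 6.54 to 7.83, adjusted p 2.76e-101), a ratio of 145. It ranked 16th from the top among 11297 genes there. Its mean over all libraries of that comparison was 205 normalized counts, so at that ratio the control level was probably low. The size of this fold change then rests on few control reads, though the number of control libraries is not known. In ph RNAi discs y was lower, with a log2 fold change of -4.21 ± 0.16 (95% interval -4.53 to -3.89, adjusted p 1.09e-143) in the authors' deposited table for ph. Vermilion was the other pigment gene called in both tables, and it was lower in each. Its log2 fold change was -2.93 ± 0.83 (adjusted p 0.00694) in the authors' deposited table for Pc and -7.34 ± 0.61 (adjusted p 4.64e-32) in the table for ph, where it was the 19th lowest of 11009 genes. Because the labels do not say whether the tables share libraries, and their controls may differ, the values stand side by side and no difference between the tables was tested.

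**Figure D1:**
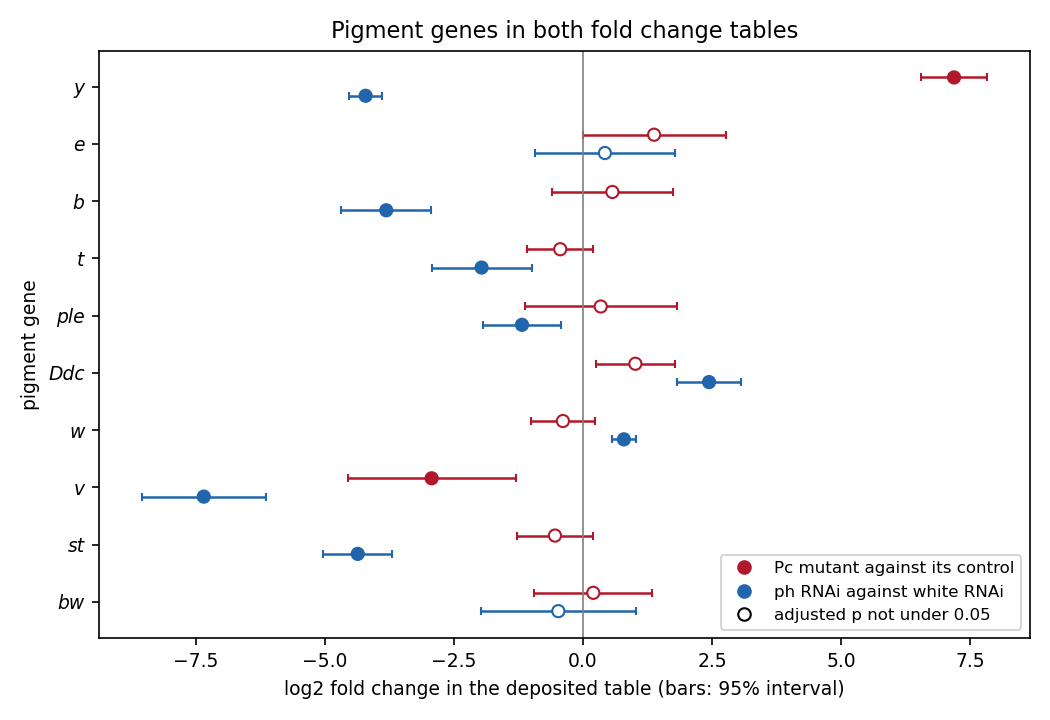
Log2 fold change of each of the 10 pigment genes (rows) in Pc mutant discs against their control (red) and in ph RNAi discs against white RNAi discs (blue), with bars for the 95% interval; filled points have an adjusted p under 0.05. The 2 values of y lie at 7.18 and -4.21, those of v at -2.93 and -7.34, and those of e and bw are open in both comparisons.

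In the Pc comparison, 1 of the 10 pigment genes was called higher (y) and 1 lower (v) at an adjusted p under 0.05, where 9.88% of the 11297 genes were called, 3.64% higher and 6.24% lower. The other 8 genes had log2 fold changes of -0.54 to 1.38 and adjusted p-values of 0.0773 to 0.940 in the authors' deposited table for Pc. In the ph comparison, 2 of the 10 were called higher (Ddc and w) and 6 lower (y, b, t, ple, v and st), where 66% of the 11009 genes were called, 31.1% higher and 34.9% lower. The median log2 fold change of the 10 genes was 0.27 in the Pc table and -1.57 in the ph table, against 0.02 and -0.06 over all genes. These shares and medians describe a set chosen from the same tables, and nothing is read from them.

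For the ph comparison, the level in each group can be derived from the deposited mean normalized count and fold change, if the 4 ph RNAi and 4 white RNAi libraries were the only ones behind that mean. The Pc table permits no such split, since the number of its control libraries is not known. Counts of different genes also differ with transcript length, so levels are set side by side only within a gene or as a sum over the same genes. Such a sum is set mostly by the genes with most reads.

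Among the enzymes that make dopamine, ple and Ddc went in opposite directions in ph RNAi discs. The implied mean of ple, the tyrosine hydroxylase, was 36.0 normalized counts in ph RNAi discs and 81.6 in white RNAi discs, and its log2 fold change was -1.18 ± 0.38 (adjusted p 0.00353) in the authors' deposited table for ph. Ddc, which acts next, had an implied mean of 80.8 normalized counts in ph RNAi discs and 14.9 in white RNAi discs. Its log2 fold change was 2.44 ± 0.32 (adjusted p 4.83e-14), a ratio of 5.43, in the authors' deposited table for ph. In Pc mutant discs ple had a log2 fold change of 0.34 ± 0.75 (adjusted p 0.911), and Ddc had 1.01 ± 0.39 with an unadjusted p of 0.00882 and an adjusted p of 0.0773 in the authors' deposited table for Pc. Neither was called there, and the interval of ple, -1.13 to 1.81, spans more than a doubling either way.

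The genes of the beta-alanine branch also differed among themselves. The beta-alanine enzyme b was lower in ph RNAi discs, with an implied mean of 11.5 normalized counts against 161 in white RNAi discs and a log2 fold change of -3.81 ± 0.45 (adjusted p 4.80e-17) in the authors' deposited table for ph. The hydrolase t was lower as well, with an implied mean of 6.73 normalized counts in ph RNAi discs and 26.2 in white RNAi discs. Its log2 fold change was -1.96 ± 0.49 (adjusted p 0.000143) in the authors' deposited table for ph. Ebony, the coupling enzyme between them, had few reads: its implied means were 8.51 normalized counts in ph RNAi discs and 6.34 in white RNAi discs, and its log2 fold change of 0.42 ± 0.69 (adjusted p 0.615) in the authors' deposited table for ph has a 95% interval of -0.93 to 1.78. None of these 3 genes was called in Pc mutant discs, where the authors' deposited table for Pc gives 0.57 ± 0.59 for b (adjusted p 0.732), -0.44 ± 0.33 for t (adjusted p 0.540) and 1.38 ± 0.71 for e (adjusted p 0.268). The interval of e in the Pc comparison was -0.01 to 2.76.

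Yellow, which takes part in making dark melanin, had far fewer reads after ph RNAi. Its implied mean was 151 normalized counts in ph RNAi discs and 2788 in white RNAi discs, whereas its mean over all libraries of the Pc comparison was 205 normalized counts in the authors' deposited table for Pc. The 2 tables were normalized separately, so these counts are not on a common scale. Stocks made for transgenic work in Drosophila often carry mutant alleles of y, w and v, or marker copies of them on a transgene, and the labels give the stocks by number only. For y, w and v, a difference between the parent stocks and an effect of the RNAi cannot be told apart in these tables. For the Pc mutant, a difference in strain between mutant and control cannot be told apart from the mutation either.

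The eye pigment genes were led by v, the entry enzyme of ommochrome synthesis. Its implied mean was 1.55 normalized counts in ph RNAi discs and 251 in white RNAi discs, so v was close to undetected after ph RNAi and the size of its fold change rests on very few reads. The transporter subunit st, which carries ommochrome precursors, was lower too, with an implied mean of 6.45 normalized counts in ph RNAi discs and 132 in white RNAi discs. Its log2 fold change was -4.36 ± 0.34 (adjusted p 8.60e-37) in the authors' deposited table for ph and -0.54 ± 0.37 (adjusted p 0.496) in the table for Pc. The pteridine transporter subunit bw was hardly present in the ph comparison, with implied means of 4.19 normalized counts in ph RNAi discs and 5.83 in white RNAi discs and a log2 fold change of -0.48 ± 0.77 (adjusted p 0.609) in the authors' deposited table for ph. In the Pc comparison, normalized separately, its mean over all libraries was 104 normalized counts. Its log2 fold change in Pc mutant discs was 0.20 ± 0.58 (adjusted p 0.940) in the authors' deposited table for Pc.

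White, the subunit common to both transporters, is the target of the control RNAi, so its value in the ph comparison is no measure of a response to ph. Its implied mean was 10624 normalized counts in ph RNAi discs and 6136 in the white RNAi discs where it was targeted, and its log2 fold change was 0.79 ± 0.12 (adjusted p 1.65e-10) in the authors' deposited table for ph. The ratio of ph RNAi to white RNAi discs was thus 1.73. The value of w in Pc mutant discs was -0.39 ± 0.31 (adjusted p 0.595) in the authors' deposited table for Pc, and the upper end of its 95% interval was 0.23.

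**Figure D2:**
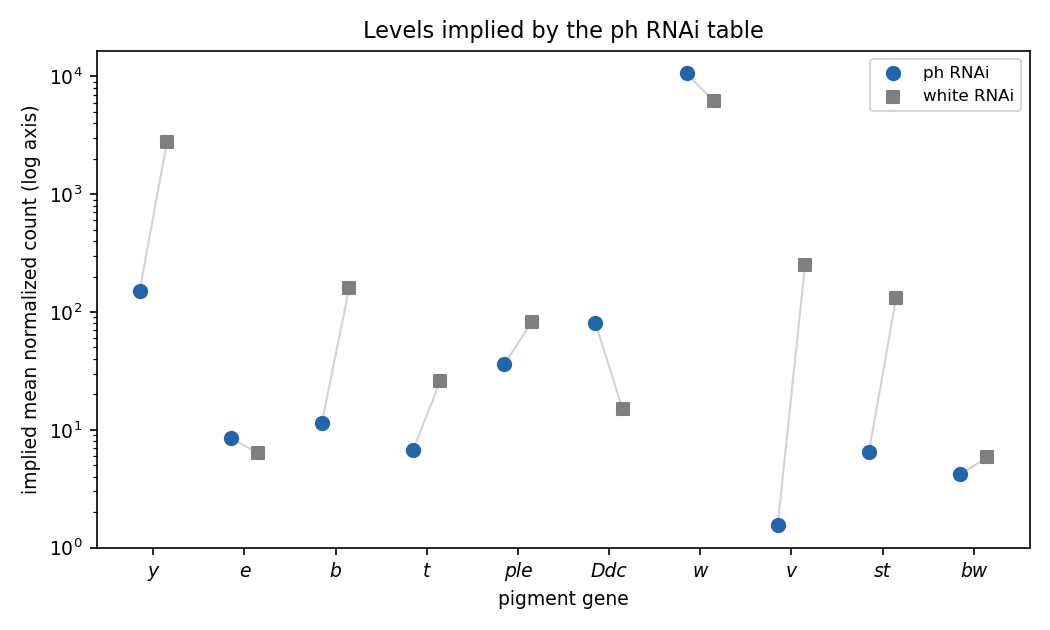
Mean normalized count (log axis) of each pigment gene in ph RNAi discs (blue circles) and white RNAi discs (grey squares), derived from the deposited mean and fold change on the assumption that 4 libraries of each group made up the mean; no spread between replicates can be given. Of the called genes, y, b, t, ple, v and st lie lower in ph RNAi discs and Ddc and w higher, with v at 1.55 against 251.

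Polycomb peaks were looked for at each pigment gene. The merged lists held 5999 PSC peaks and 2205 Su(z)12 peaks; the fold and -log10 q of each peak are the authors' own. A merged PSC peak lay in the gene or the 1 kb around it for 2 of the 10 genes, y and w, where 30.3% of 13922 protein-coding genes had one. A merged Su(z)12 peak lay there for 1, y, where 10.4% of protein-coding genes had one, and 9.65% had both. No merged peak of either protein lay inside any of the 10 annotated genes, and none lay within 5 kb of e, b, t, ple, Ddc or bw. In the Release 6 annotation b and Ddc lie on 2L (13821248 to 13823979 and 19116483 to 19120306), ple on 3L (6713356 to 6719525), e on 3R (21229839 to 21237177), t on X (9217655 to 9223257) and bw on 2R. That annotation is used without strand, so distances are from the lower or the upper end of a gene.

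The peak at y was shared by both proteins and all 4 replicate lists. On the X chromosome of build dm6, where y spans 356509 to 361245, the merged PSC peak at 361460 to 361740 lay 215 bp beyond the upper end of the gene, with a fold of 2.44 and a -log10 q of 22.7. The merged Su(z)12 peak at 361446 to 361747 overlapped it, with a fold of 2.85 and a -log10 q of 31.9. By fold it ranked 154th of the 2205 merged Su(z)12 peaks, and the PSC peak ranked 1284th of 5999. In the replicate lists the PSC peak had folds of 2.79 and 2.70, and the Su(z)12 peak had 2.70 and 3.58. A further PSC peak, 2621 bp beyond the upper end of y, had a fold of 2.20 and was called in replicate 2 only; it overlaps the annotated long non-coding RNA lncRNA:yar. Both peaks and y itself lie inside the annotated gene CG32816, and the peaks cannot be assigned to either gene.

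The remaining peaks near pigment genes were weaker or farther off. At w (X, 2790599 to 2796466) a merged PSC peak ended 65 bp below the lower end, with a fold of 1.88 and a -log10 q of 9.45, and overlapped no peak in either replicate list. It overlaps kirre and CG32795. The nearest merged PSC peak to v (X, 10923972 to 10925631) had a fold of 2.76, was called in both replicates and lay 4088 bp beyond the upper end. Its summit was 166 bp from CG2145, the gene nearest to it. The nearest to st (3L, 16497651 to 16500460) lay 2095 bp below the lower end, with a fold of 1.48, and was called in replicate 1 only. With a window of 1 kb, the peaks just inside it thus lay at 65 and 215 bp, and those just outside at 2095, 2621 and 4088 bp.

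**Figure D3:**
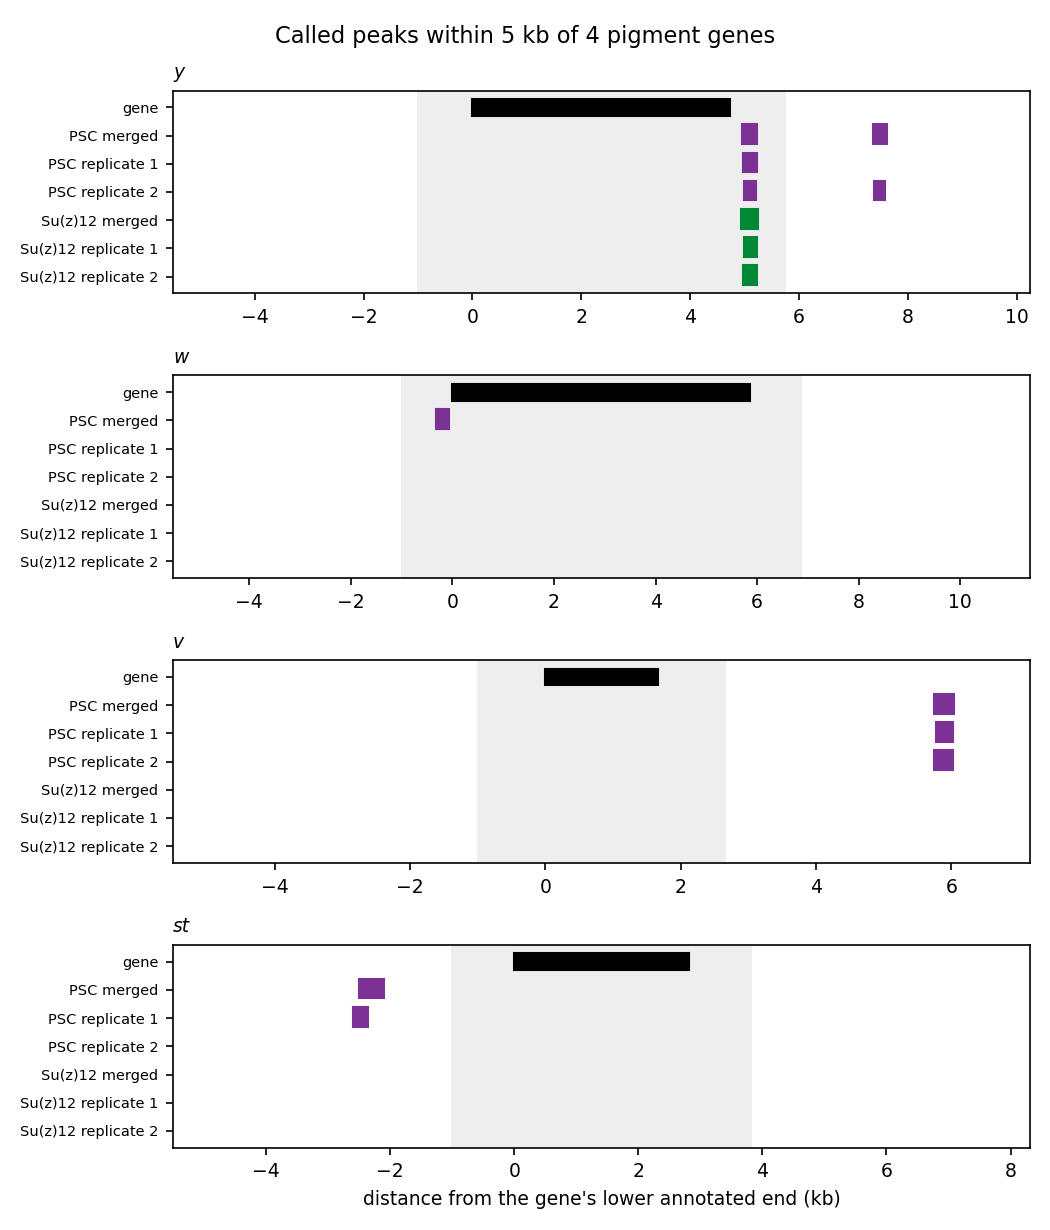
Called PSC (purple) and Su(z)12 (green) peaks within 5 kb of y, w, v and st, in the merged list and each replicate list (rows), against the distance in kb from the lower annotated end of the gene (black bar); the grey band is the gene and 1 kb around it. At y all 6 lists have a peak just beyond the upper end, at w only the merged PSC list has one, and at v and st the PSC peaks lie outside the band.

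The genes around y moved differently from y in Pc mutant discs. CG32816, which contains y, was lower in Pc mutant discs, with a log2 fold change of -0.98 ± 0.27 (adjusted p 0.00427), and so was CG3777, 6005 bp below y, with -0.81 ± 0.11 (adjusted p 1.87e-10), in the authors' deposited table for Pc. The proneural gene ac, 8786 bp beyond y, had -0.31 ± 0.21 (adjusted p 0.479) there. In ph RNAi discs all 3 neighbours were lower, as y was: the authors' deposited table for ph gives -2.97 ± 0.34 for CG32816 (adjusted p 5.88e-18), -1.57 ± 0.06 for CG3777 (adjusted p 2.11e-174) and -4.10 ± 0.18 for ac (adjusted p 2.33e-116). Of the 5 neighbours within 20 kb of y, none was higher in Pc mutant discs, where 3.64% of all genes were. None was higher in ph RNAi discs either, where 31.1% were and where CG43182 has no value. CG43182 and CG43181 had few reads, with mean normalized counts of 12.7 and 4.50 in the Pc comparison. Whether reads were counted by strand is not given here, so those of y and of CG32816 may have been split between them.

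Around v, 2 of 3 neighbours were lower in Pc mutant discs, where 6.24% of all genes were, and all 3 in ph RNAi discs, where 34.9% were. CG43901, 536 bp below v, had log2 fold changes of -0.62 ± 0.16 (adjusted p 0.00299) in the authors' deposited table for Pc and -5.84 ± 1.06 (adjusted p 1.01e-07) in the table for ph. CG2145, 1768 bp beyond v, had -0.32 ± 0.09 (adjusted p 0.00408) in the authors' deposited table for Pc and -3.05 ± 0.21 (adjusted p 3.60e-49) in the table for ph. Myo10A was called lower in ph RNAi discs, at -0.52 ± 0.05 (adjusted p 1.98e-21) in the authors' deposited table for ph, and had 0.30 ± 0.15 (adjusted p 0.231) in the table for Pc.

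**Figure D4:**
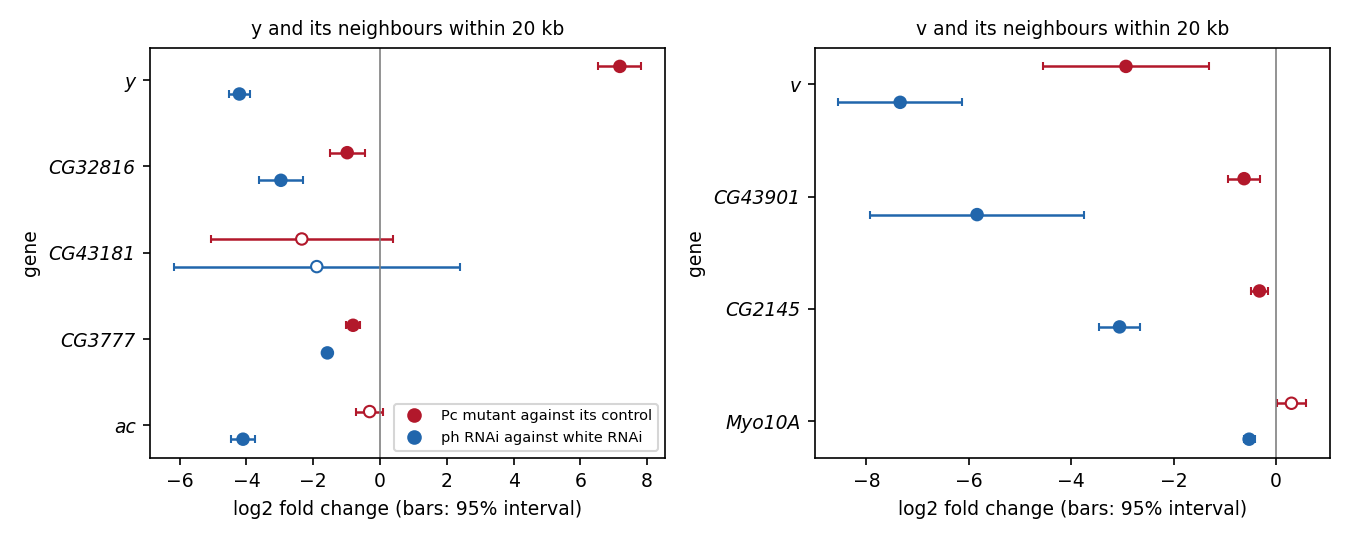
Log2 fold changes, with bars for the 95% interval, of y (left) and v (right) and of listed neighbours within 20 kb that both tables hold, in Pc mutant discs (red) and ph RNAi discs (blue); filled points have an adjusted p under 0.05. In Pc mutant discs y lies at 7.18 while CG32816 and CG3777 lie below 0, and v and CG43901 lie below 0 in both comparisons.

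Near the other pigment genes, Ddc and amd, its paralogue 2373 bp away, moved apart in ph RNAi discs. Of the 10 neighbours within 20 kb of Ddc, 6 were higher and 3 lower in ph RNAi discs, where 31.1% and 34.9% of all genes were. The product of amd takes part in making flexible cuticle; amd had a log2 fold change of -4.51 ± 0.43 (adjusted p 3.08e-25) in the authors' deposited table for ph, against 2.44 for Ddc, and -0.07 ± 0.23 (adjusted p 0.953) in the table for Pc. White overlaps kirre, a cell adhesion gene of muscle fusion and eye patterning, which was lower in Pc mutant discs (-0.67 ± 0.13, adjusted p 2.05e-05) and in ph RNAi discs (-4.94 ± 0.60, adjusted p 8.73e-16) in the authors' deposited tables. Within 20 kb of b, 6 of 13 neighbours were higher and 1 lower in ph RNAi discs, where 31.1% and 34.9% of all genes were. Among the higher genes was tam, the mitochondrial DNA polymerase, 1 bp from b, with 1.30 ± 0.08 (adjusted p 2.51e-63) in the authors' deposited table for ph. The genes st, bw and Ddc also overlap annotated neighbours (CG43373, mi and CG10561), and reads of overlapping genes may have been split between them.

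The 52 other genes of the pigment pathways were grouped by role. Of these, 49 had an adjusted p in the authors' deposited table for Pc, with a median log2 fold change of 0.04. Of the 49, 6 were higher and 2 lower (16.3% called, against 9.88% of all genes). The higher genes were yellow-b, yellow-c and 4 of the 6 pigmentation regulators described below. Of 50 with an adjusted p in the authors' deposited table for ph, 13 were higher and 27 lower (80% called, against 66% of all genes), with a median of -0.30. Centred on the 84 ribosomal protein genes, whose own median was 0.07 in the Pc table and 0.38 in the ph table, the split was 3 higher and 3 lower in Pc mutant discs and 8 higher and 36 lower in ph RNAi discs. PSC peaks lay in or within 1 kb of 20 of the 52 genes, Su(z)12 peaks at 8, and both at 7. Of all protein-coding genes, 30.3%, 10.4% and 9.65% had them. All 6 regulators, most of them long genes, were among those with a PSC peak, and all but bab1 among those with a Su(z)12 peak. The others with a Su(z)12 peak were yellow-e3, lt and Rab32, and at lt and Rab32 neither replicate list had one.

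Most of the cuticle tanning enzymes were lower in ph RNAi discs. Of 10 genes, 9 were lower and 1 higher in the authors' deposited table for ph, where 34.9% of all genes were lower and 31.1% higher. The median log2 fold change of the 10 was -2.38 there. None was called in the table for Pc, where 9.88% of all genes were called. The median of the 10 there was -0.08, and 2 of them had an unadjusted p under 0.05 by DESeq2 (Pu and Hn). The laccase that oxidises catechols for cuticle hardening (laccase2) had -2.86 ± 0.10 in the authors' deposited table for ph (adjusted p 1.39e-190). Dat, which acetylates dopamine, had -2.55 ± 0.67 (adjusted p 0.000261), and Pu, which makes the cofactor of the tyrosine hydroxylase, had -2.21 ± 0.17 (adjusted p 1.43e-39), in the authors' deposited table for ph. The exception was Hn, phenylalanine hydroxylase, which supplies tyrosine: it had 2.20 ± 0.49 (adjusted p 1.53e-05) in the authors' deposited table for ph and -1.02 ± 0.46 (adjusted p 0.174) in the table for Pc.

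Also in this group were the phenoloxidases PPO1 and PPO2, which are made by haemocytes. They are paralogues, and whether reads were shared between them was not tested. They had log2 fold changes of -3.01 ± 0.50 (adjusted p 4.41e-09) and -3.13 ± 0.52 (adjusted p 3.48e-09) in the authors' deposited table for ph. All 8 haemocyte markers (Hml, NimC1, Pxn, eater, srp, He, Sr-CI, lz) were lower in ph RNAi discs as well, where 34.9% of all genes were, with a median of -2.90 for the list. Their implied levels summed to 3102 normalized counts in ph RNAi discs and 20739 in white RNAi discs, and no marker was at 0, the lowest in ph RNAi discs being 78.3. In Pc mutant discs PPO1 and PPO2 had 0.02 ± 0.73 and 0.13 ± 0.72 in the authors' deposited table for Pc (adjusted p 0.998 and 0.976). Of the 8 markers, 1 was lower there, lz, which eye cells use too, where 6.24% of all genes were lower. The median of the list was 0.07. The part of haemocyte number in the phenoloxidase values was not tested.

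Relatives of y went both ways. Of the 13 other genes of the yellow family, 10 had an adjusted p in the authors' deposited table for Pc, where 2 were higher and none lower, with a median of 0.37. Of all genes, 3.64% were higher there and 6.24% lower. Of 11 yellow family genes with an adjusted p in the authors' deposited table for ph, 2 were higher and 6 lower, with a median of -2.14, where 31.1% of all genes were higher and 34.9% lower. The same 2 genes were the higher ones in each table. Log2 fold changes of yellow-b were 1.05 ± 0.20 (adjusted p 1.14e-05) in the authors' deposited table for Pc and 3.20 ± 0.16 (adjusted p 1.74e-87) in the table for ph. Those of yellow-c were 1.71 ± 0.33 (adjusted p 1.55e-05) in the authors' deposited table for Pc and 1.87 ± 0.35 (adjusted p 2.10e-07) in the table for ph.

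The implied mean of yellow-b was 2775 normalized counts in ph RNAi discs and 302 in white RNAi discs. In ph RNAi discs the lower genes were yellow-d, yellow-e, yellow-e2, yellow-e3, yellow-f and yellow-h, at -1.02 to -3.97 in the authors' deposited table for ph. Of these, yellow-f was lowest, with an implied mean of 19.5 normalized counts in ph RNAi discs and 305 in white RNAi discs; whether reads were shared with its paralogue yellow-f2 was not tested. A merged peak of both proteins lay at yellow-e3, where only replicate 2 of Su(z)12 had a peak. This gene had -2.14 ± 0.31 (adjusted p 8.46e-12) in the authors' deposited table for ph and 0.36 ± 0.22 (adjusted p 0.391) in the table for Pc.

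Other ommochrome genes were mostly lower in ph RNAi discs, as v and st were. In ph RNAi discs 34.9% of all genes were lower and 31.1% higher, and in Pc mutant discs 6.24% were lower. Of 5 ommochrome genes, 3 were lower and 1 higher in the authors' deposited table for ph, with a median of -1.23, and 1 was lower in the table for Pc, with a median of 0.08. The largest drop was in cd (cardinal), a peroxidase of the last step of ommochrome synthesis, at -4.97 ± 0.33 (adjusted p 1.18e-49) in the authors' deposited table for ph, with implied means of 5.93 normalized counts in ph RNAi discs and 186 in white RNAi discs. The value of cd in Pc mutant discs was -0.35 ± 0.19 (adjusted p 0.307) in the authors' deposited table for Pc. KFase, the formamidase that acts after v, was lower in both, at -0.61 ± 0.22 (adjusted p 0.0480) in the authors' deposited table for Pc and at -1.49 ± 0.30 (adjusted p 1.22e-06) in the table for ph.

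The transporter-like gene kar (karmoisin) had -1.15 ± 0.27 (adjusted p 5.41e-05) in the authors' deposited table for ph and 0.24 ± 0.34 (adjusted p 0.835) in the table for Pc. CG6950, annotated as Kyat, was higher in ph RNAi discs, at 0.44 ± 0.05 (adjusted p 1.20e-19) in the authors' deposited table for ph, and had 0.08 ± 0.13 (adjusted p 0.872) in the table for Pc. The kynurenine hydroxylase cn (cinnabar) was barely detected, with implied means of 0.517 normalized counts in ph RNAi discs and 1.21 in white RNAi discs, and was called in neither table.

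The eye markers were lower in ph RNAi discs, as v, st and cd were. CG6950 was higher there, at 0.44, where the ribosomal protein genes had a median of 0.38. Centred on those genes, no gene of the ommochrome list was higher. The ph value of w is no measure of a response to ph, and bw, which was not called, had a mean of 5.01 normalized counts in the ph comparison. In ph RNAi discs the implied levels of the 10 eye disc markers summed to 11375 normalized counts, against 72048 in white RNAi discs. None was at 0, the lowest in ph RNAi discs being 13.6. Of the sum in ph RNAi discs, dac alone gave 5395, and the ratios of single markers ran from 0.0163 (sens) to 0.481 (dac). The part of the eye marker loss in the values of v, st and cd was not tested.

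Pteridine and granule genes showed small changes with a few exceptions. Of 9 pteridine genes, 3 were higher and 4 lower in the authors' deposited table for ph, where 31.1% of all genes were higher and 34.9% lower. The median of the 9 was -0.10 there. None was called in the table for Pc, where 9.88% of all genes were called. The median of the 9 there was -0.14, and 3 of them had an unadjusted p under 0.05 by DESeq2. Pu and Hn belong to this list too. The largest other change was in ry (rosy), xanthine dehydrogenase, at -2.54 ± 0.43 (adjusted p 1.05e-08) in the authors' deposited table for ph and -0.29 ± 0.29 (adjusted p 0.720) in the table for Pc. Of 11 genes of vesicle traffic to pigment granules, 3 were higher and 6 lower in the authors' deposited table for ph, and the range without Rab32 was -0.36 to 0.26. Rab32, the small GTPase of the lightoid mutant, was lower in both comparisons, at -0.68 ± 0.14 (adjusted p 6.41e-05) in the authors' deposited table for Pc and -3.83 ± 0.21 (adjusted p 1.86e-73) in the table for ph. Its implied mean was 96.0 normalized counts in ph RNAi discs and 1367 in white RNAi discs. Centred on ribosomal protein genes, the small ph changes of car, lt and cm, and of pr among the pteridine genes, turned from higher to lower.

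**Figure D5:**
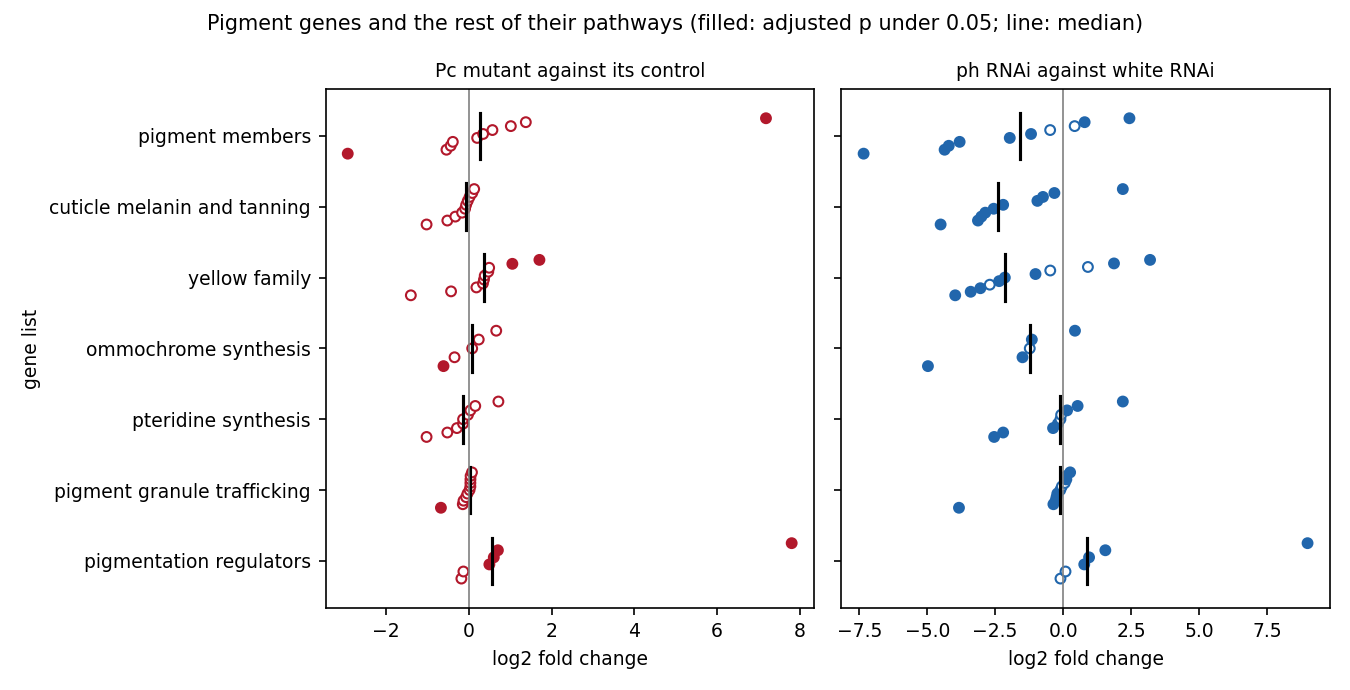
Log2 fold changes of the 10 pigment genes and of 6 lists of other pigment pathway genes (rows) in Pc mutant discs (left) and ph RNAi discs (right); filled points have an adjusted p under 0.05 and black lines are medians. In ph RNAi discs the tanning enzymes and the yellow family have medians of -2.38 and -2.14, and in Pc mutant discs most points lie near 0.

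Among regulators of pigmentation, Abd-B had the largest fold change in both tables. In the Pc comparison 3.64% of all genes were higher and 6.24% lower, and in the ph comparison 31.1% and 34.9%. Of 6 transcription factors known for patterning pigment in the fly, 4 were higher and none lower in each table, with medians of 0.55 in Pc mutant discs and 0.87 in ph RNAi discs. These counts hold for the deposited scaling: centred on ribosomal protein genes, 1 was higher and none lower in Pc mutant discs, and 4 were higher and 2 lower in ph RNAi discs. Centred on all genes, 3 were higher in Pc mutant discs. The Hox gene Abd-B, which drives y in the male abdomen, had log2 fold changes of 7.80 ± 0.38 (adjusted p 8.35e-92) in the authors' deposited table for Pc and 8.99 ± 0.16 in the table for ph. Its implied mean was 10536 normalized counts in ph RNAi discs and 20.7 in white RNAi discs. Abd-B was thus higher in both comparisons, while y was higher in Pc mutant discs and lower in ph RNAi discs. Any part of Abd-B in the values of y was not tested.

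The sex differentiation gene dsx had 0.70 ± 0.23 (adjusted p 0.0264) in the authors' deposited table for Pc and 1.55 ± 0.09 (adjusted p 4.07e-72) in the table for ph. The selector gene en, known to act on y in the wing of Drosophila biarmipes, had 0.60 ± 0.19 (adjusted p 0.0229) in the authors' deposited table for Pc and 0.78 ± 0.08 (adjusted p 7.39e-21) in the table for ph. Of the remaining factors, bi (optomotor-blind) was higher in ph RNAi discs, at 0.95 ± 0.05 (adjusted p 2.33e-73), and had -0.13 ± 0.17 (adjusted p 0.805) in Pc mutant discs in the authors' deposited tables. Of the bric-a-brac repressors, bab2 had 0.50 ± 0.17 (adjusted p 0.0437) in the authors' deposited table for Pc and 0.09 ± 0.07 (adjusted p 0.300) in the table for ph, and bab1 was called in neither, with -0.18 ± 0.16 and -0.10 ± 0.14. All 6 had a merged PSC peak, and all but bab1 a Su(z)12 peak, where 30.3% and 10.4% of all protein-coding genes had one. All but en are long genes, of 36848 to 72792 bp, which gives a peak more room to fall inside them. In replicate 2, bab1 had no PSC peak, and bab2 and dsx had no Su(z)12 peak.

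Dopamine is also a neurotransmitter, so markers of monoamine neurons were read beside ple and Ddc. For this and the next lists, 3.64% of all genes were higher and 6.24% lower in Pc mutant discs, and 31.1% and 34.9% in ph RNAi discs. Of 5 monoamine markers, 1 was higher and 1 lower in the authors' deposited table for Pc, and 1 was higher and 2 lower in the table for ph. The higher gene was Tdc2, tyrosine decarboxylase, at 2.39 ± 0.41 in the authors' deposited table for Pc and 6.28 in the table for ph. The dopamine transporter DAT was lower in both, at -0.96 ± 0.32 in the authors' deposited table for Pc and -4.24 in the table for ph. Of glial markers, 2 of 6 were lower in Pc mutant discs, and 2 were higher and 4 lower in ph RNAi discs. Of 7 fat body markers, 5 were lower in Pc mutant discs and none was called in ph RNAi discs (DESeq2; 0 at an unadjusted p under 0.05 too). Of 8 muscle markers, 8 were lower in Pc mutant discs and 6 in ph RNAi discs. Their part in the pigment gene values was not tested.

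To place y and v among all genes, the 7614 genes with an adjusted p and a mean of at least 50 counts in both tables were ranked by distance in the plane of the 2 log2 fold changes. Nearest to y were Sgs8, a salivary glue protein gene, at a distance of 3.79, Ccn at 5.03 and the wing selector gene ap at 5.04. Log2 fold changes of Ccn were 2.25 ± 0.34 in the authors' deposited table for Pc and -5.15 ± 0.46 in the table for ph, and those of ap were 2.61 ± 0.26 and -2.09 ± 0.18. Sgs8 had 3.67 ± 1.43 (adjusted p 0.0872) in the authors' deposited table for Pc and -2.80 (adjusted p 0.0338) in the table for ph. None of the genes ranked thus lay closer to y than 3.79 log2 units. Nearest to v were CG15765 at a distance of 1.03, Dscam4 at 1.31 and DIP-delta at 1.36, the last 2 being cell surface proteins of neurons. In the authors' deposited tables Dscam4 had -3.70 ± 0.27 in Pc mutant discs and -6.28 ± 0.58 in ph RNAi discs.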

How the data were processed

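Per the submitters' processing notes, reads were placed on build dm6, and the notes name STAR, HTSeq, DESeq2 1.22.1, Bowtie2, SAMtools and MACS2 2.1.1.20160309 without settings. The 2 deposited fold change tables have DESeq2's columns, per the file headers: the authors' log2 fold change and its standard error, p-value and adjusted p-value, and the mean normalized signal over libraries. In the 6 deposited peak lists the fold, score and -log10 q are the authors'. Depth is unknown, so no counting interval was computed.

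The pigment genes, gene lists and alternatives were chosen with earlier results of these data known. A gene was called when its deposited adjusted p was under 0.05. Beside the authors' tests, for the alternatives alone, Wald p-values of recentred fold changes were recomputed from the deposited standard errors, and p-values were adjusted anew by Benjamini-Hochberg over all genes. Intervals are 95% from the deposited standard error. Implied means assume 8 libraries in the ph comparison, 4 a group. Peaks were matched by at least 1 bp to each gene and the 1 kb around it, with the Release 6 RefSeq annotation. Named genes were the 10 pigment genes, pathway genes called with an absolute log2 fold change of at least 1, every gene of a pathway list of 6 or fewer, Pc, ph-p and ph-d, and the 3 genes nearest to y and v; neighbours, and the other genes named, were chosen after their values were seen. The recomputed Wald test with its adjustment was run on simulated fold changes, where only the direction of large planted effects had to match. The adjustment was also compared with the authors' own values, and the matching of peaks to genes was tested on made-up intervals. Python 3.11.15, pandas 2.3.3, SciPy 1.17.1 and Matplotlib 3.10.9 were used. A search of promoter motifs was planned and not run, since no promoter sequence was used here. Hi-C, histone mark, input and embryo samples were not analysed here.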

Additional observations from a re-analysis of the deposited data

How the results depend on the processing

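Calls among the 10 pigment genes kept within 1.5 times their number under all alternatives run: adjusted p under 0.01, adjustment over every gene with a p-value, centring on all genes or on ribosomal protein genes, a log2 fold change of at least 1, and a mean count of at least 50. All 40 recentred fold changes of single pigment genes kept their direction and side of the threshold; the smallest called, w in the ph table, was 0.41 when centred on ribosomal protein genes. That centring shifts all genes by 0.38 in the ph table and 0.07 in the Pc table. The 8 pathway genes called in the Pc table came to 4 at an adjusted p under 0.01 and 3 with a log2 fold change of at least 1. The 40 called in the ph table came to 22 with that fold, since fewer genes can pass both limits.

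Peaks were less stable. The 2 pigment genes with a PSC peak (y, w) came to 0 with the gene alone, 4 with 5 kb, 1 for peaks found in both replicates, 0 at a fold of at least 3, and from 1 to 1 when either replicate was left out. The 1 gene with a Su(z)12 peak (y) came to 0 with the gene alone and 0 at a fold of at least 3. Without single-sample values, no library of either fold change table could be left out. No paired analysis was possible because the tables hold no samples and carry no replicate numbers.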
